A study of Mus musculus with 10 samples.

Results

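The histone genes were taken as the genes of a RefSeq table of the mouse assembly GRCm38.p6 whose symbol marks a linker or core histone of the H1, H2A, H2B, H3 or H4 gene series. They were 70 of the 49943 genes of that table on chromosomes 1 to 19, X and Y, of which 67 were protein-coding and 3 were pseudogenes. By class they were 11 H1, 19 H2A, 16 H2B, 12 H3 and 12 H4 genes. A peak was assigned to a gene when its summit, the position of highest signal, lay in the gene or within 1 kb of it, and each peak was counted once. Most of these genes lay in 3 clusters: 23 genes on chromosome 13 from 21715711 to 22043658, 32 genes on chromosome 13 from 23531044 to 23934913, and 10 genes on chromosome 3 from 96219885 to 96270192. The other 5 were the separate H1 genes H1f0, H1f7, H1f8, H1f10 and H1f11-ps.

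Chromatin accessibility was measured by ATAC-seq, an assay that maps open DNA by where a transposase can insert, in 10 libraries of mouse neural stem cells. The control groups had the genotype Smchd1 fl/fl, with 3 female and 2 male libraries, and the deleted groups had the genotype Smchd1 del/del, again with 3 female and 2 male libraries. Smchd1 is a chromatin protein known for its part in silencing on the inactive X chromosome, and the comparison asks how its deletion changes accessibility. Each group was represented by 1 peak list that the authors called on pooled libraries, so the values below carry no replicate error and differences between groups could not be tested.

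All cells were of the C57BL/6 strain and came from E14.5 embryos homozygous for the floxed allele. The lines were transduced with the retrovirus MSCV-Cre-puro, placed under puromycin after 24 h, and collected 7 days after transduction. This text stands with all samples, and the labels do not say whether control cells were given a vector. The deletion was thus made in cultured cells, in lines that had been established beforehand. The free-text description of the male samples reads female, whereas their titles and sex field read male; the titles were followed. All 10 neural stem cell marker genes examined, among them Sox2, Nes and Pax6, had a peak in all 4 lists. So did all 6 neuronal and all 5 astrocyte markers, so that a nearby peak did not separate these cell types.

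Values for the 4 lists are given throughout in the order control females, deleted females, control males, deleted males. The lists were called from 144613215, 139318421, 91734730 and 74674218 tags. Because depth and list length differed, each list was reduced to its 88159 strongest peaks by the authors' -log10 q value. The weakest peak kept had a -log10 q of 6.59, 4.27, 4.52 and 1.39, so the weakest peaks of the deleted male list are the least reliable. The strength of a peak is given as its percentile within its own list, with 100 for the strongest. Pileup is the height of tag coverage at the summit, and fold enrichment is the ratio of that height to the local background, both as the authors deposited them.

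Histones are the proteins around which DNA is wrapped: H2A, H2B, H3 and H4 form the core of the nucleosome, and H1 binds the linker DNA between nucleosomes. The clustered, replication-dependent histone genes are short, mostly lack introns, and are transcribed in S phase from a nuclear compartment called the histone locus body, where the protein NPAT is concentrated. Their mRNAs end in a stem-loop instead of a poly(A) tail, and many H2A and H2B genes are arranged head to head around a shared promoter.

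The upstream sequences of 10 genes are shown because they belong to the strongest and the weakest peak of a class in control females, or, for H1f6, to a gene of the larger chromosome 13 cluster without a peak. They are RefSeq sequences of GRCm38.p6, the same sequence build as the mm10 build of the peak lists, and end 1 base before the annotated gene start. Sequences run 5′ to 3′ on the strand of the gene. Capitals mark 6 searched words on either strand: TATAAA (the core of a TATA box), CCAAT (the CCAAT box), ATTTGCAT (the octamer bound by POU factors), AAACACA (the H1 box), GGTCC (part of the H4 promoter element) and GCGCGAAA (a word of E2F sites). None of these contains another. H1f4 lies at chr13:23622559-23622808 on the minus strand, H1f1 at chr13:23763418-23763667 on the plus strand, and H1f6 at chr13:23695561-23695810 on the plus strand. The interval between H2ac12 and H2bc12 is chr13:22035644-22035820 and that between H2ac8 and H2bc8 is chr13:23571221-23571399, both shown on the plus strand. H2ac19 is chr3:96240375-96240624 on the minus strand. H3c6 is chr13:23562386-23562635 on the minus strand, H3c10 is chr13:21717378-21717627 on the plus strand, H4c3 is chr13:23698459-23698708 on the minus strand, and H4c2 is chr13:23756687-23756936 on the plus strand.
H1f4: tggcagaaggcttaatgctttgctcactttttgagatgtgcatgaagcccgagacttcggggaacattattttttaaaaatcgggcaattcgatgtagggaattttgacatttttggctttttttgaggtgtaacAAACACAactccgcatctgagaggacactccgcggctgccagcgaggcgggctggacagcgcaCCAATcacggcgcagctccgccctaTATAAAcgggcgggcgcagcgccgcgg
H1f1: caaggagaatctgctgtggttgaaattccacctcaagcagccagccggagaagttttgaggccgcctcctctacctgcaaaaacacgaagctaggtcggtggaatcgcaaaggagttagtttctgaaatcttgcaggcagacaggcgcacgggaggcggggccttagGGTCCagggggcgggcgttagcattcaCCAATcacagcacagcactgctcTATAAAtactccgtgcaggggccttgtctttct
H1f6: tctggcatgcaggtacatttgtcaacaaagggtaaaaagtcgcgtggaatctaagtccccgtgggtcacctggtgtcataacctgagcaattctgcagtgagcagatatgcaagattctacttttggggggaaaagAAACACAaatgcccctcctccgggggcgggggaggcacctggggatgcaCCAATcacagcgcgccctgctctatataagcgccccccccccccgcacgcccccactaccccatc
H2ac19: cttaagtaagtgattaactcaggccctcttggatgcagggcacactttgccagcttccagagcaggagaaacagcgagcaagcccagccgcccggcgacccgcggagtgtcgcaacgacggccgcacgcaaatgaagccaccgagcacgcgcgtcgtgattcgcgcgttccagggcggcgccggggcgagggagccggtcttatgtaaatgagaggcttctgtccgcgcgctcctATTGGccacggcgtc
H2bc12: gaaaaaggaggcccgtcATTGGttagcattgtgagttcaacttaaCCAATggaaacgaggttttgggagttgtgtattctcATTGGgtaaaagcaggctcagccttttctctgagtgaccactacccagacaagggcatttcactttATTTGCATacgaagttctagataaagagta
H2bc8: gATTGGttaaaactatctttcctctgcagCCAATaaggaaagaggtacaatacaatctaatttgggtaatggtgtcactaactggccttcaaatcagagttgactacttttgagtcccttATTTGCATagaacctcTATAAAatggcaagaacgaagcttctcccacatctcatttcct
H3c6: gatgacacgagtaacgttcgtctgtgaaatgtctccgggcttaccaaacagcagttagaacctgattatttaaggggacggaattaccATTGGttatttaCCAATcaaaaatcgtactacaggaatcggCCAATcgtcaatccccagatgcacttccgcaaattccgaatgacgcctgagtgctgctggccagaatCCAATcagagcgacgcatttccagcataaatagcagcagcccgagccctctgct
H3c10: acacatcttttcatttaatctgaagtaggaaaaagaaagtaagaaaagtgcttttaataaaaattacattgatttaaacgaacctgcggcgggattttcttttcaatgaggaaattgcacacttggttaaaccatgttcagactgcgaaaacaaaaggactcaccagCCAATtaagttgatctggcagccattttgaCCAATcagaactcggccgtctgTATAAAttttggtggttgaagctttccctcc
H4c3: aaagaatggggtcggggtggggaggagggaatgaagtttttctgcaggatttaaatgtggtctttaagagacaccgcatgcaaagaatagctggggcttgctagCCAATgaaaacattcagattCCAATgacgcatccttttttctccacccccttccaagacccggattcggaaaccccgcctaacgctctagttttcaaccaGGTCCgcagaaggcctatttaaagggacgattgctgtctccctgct
H4c2: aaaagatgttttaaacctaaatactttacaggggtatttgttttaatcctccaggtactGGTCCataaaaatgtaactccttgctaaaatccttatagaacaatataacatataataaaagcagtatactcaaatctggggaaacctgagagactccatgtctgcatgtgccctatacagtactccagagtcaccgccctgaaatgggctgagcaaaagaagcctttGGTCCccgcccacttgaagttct

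In these sequences, TATAAA began 27 bases upstream of the start of H1f4, 33 of H1f1, 43 of H2bc8 and 31 of H3c10. AAACACA began 115 bases upstream in H1f4 and 114 in H1f6, the testis H1 gene that had no peak. The octamer began 30 bases upstream of H2bc12 and 59 of H2bc8. The intervals at H2bc12 and H2bc8 thus both held the octamer and CCAAT, whereas the upstream sequence of H2ac19, the strongest H2A gene, held CCAAT and no octamer. Both H4 genes held GGTCC.

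The search was extended to the windows from 250 bases before to 50 bases after the start, which the RefSeq promoter table held for 62 of the 70 genes. TATAAA was found in 34 of them (54.8%), against 14.2% of all 27025 promoters of the table, and CCAAT in 51 (82.3%), against 37.9%. CCAAT was present in all 17 H2A, all 14 H2B and all 10 H3 windows, but in 3 of 11 H4 windows. The octamer was found in 12 windows (19.4%, against 1.75%), 6 of H2A and 6 of H2B genes. AAACACA was found in 5 of 10 H1 windows and in 9 windows altogether (14.52%, against 7.14%). GGTCC was found in 10 of 11 H4 windows, although its share over all histone windows, 43.5%, was close to the 45.4% of all promoters. GCGCGAAA was found in 9 windows (14.52%, against 0.318%), 5 of H2A and 4 of H2B genes. The members of a head-to-head pair share part of their window, so H2A and H2B counts are not independent, and a match describes letters, not binding.

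Of the 70 histone genes, 66 had a peak in all 4 lists (94.3%). Over all protein-coding genes this share was 72.4%, and per list it was 75.1%, 75.6%, 74.8% and 75.3%. None had a peak in only some of the lists. The set called cytosolic ribosomal protein genes here had a peak in all lists for 94 of 100 genes. It was picked by symbol alone: protein-coding genes whose symbol starts with Rpl or Rps and a digit, with a p allowed between. Other genes named after a ribosomal protein also meet this rule and were not removed. All H2A, H2B, H3 and H4 genes had a peak, pseudogene H2ac5-ps included, and the 4 genes without one were all of class H1. H1f6 encodes a testis linker histone, H1f7 a linker histone of spermatids and H1f8 the oocyte linker histone, and H1f11-ps is a pseudogene. The 7 other H1 genes, which include the widely expressed H1f2, H1f3, H1f4 and H1f5 and the replication-independent H1f0 and H1f10, had a peak in every list.

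The histone genes held 61, 63, 68 and 64 peaks. The log2 ratio of deleted to control counts was 0.05 in females (95% exact binomial interval -0.48 to 0.58) and -0.09 in males (-0.60 to 0.43); the intervals cover counting error only. Both intervals included 0, but they treat peaks as independent draws and are no test of the deletion. Mostly the same loci were counted in each list, and 1 locus can hold more peaks in some lists. H1f10, for example, had 1, 2, 2 and 1 peaks. Of the histone gene peaks, 27, 30, 30 and 28 had 2 histone genes within reach of their summit, and 2, 2, 1 and 1 had 3 or more. Their median width was 699, 602, 593 and 591 bp, against 368, 316, 319 and 285 bp for all peaks of the lists.

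The strongest peak of a histone gene had a median percentile of 77.2, 76.5, 73.8 and 78.1. This was lower in every list than the median over protein-coding genes, 86.8, 86.8, 86.6 and 87.4, and than that over cytosolic ribosomal protein genes, 84.6, 85.7, 82.9 and 85.2. The strongest peak is taken over the whole gene, so a longer gene with more peaks has more chances of a high value. In control females 51613 peaks lay at 16432 protein-coding genes, and 61 peaks at 66 histone genes. Gene sets were not matched for length, and the part of length in the gap was not tested. Ranked by pileup, the medians were 84.9, 83.5, 84.1 and 85.8 for histone genes and 88.0, 87.9, 87.6 and 88.2 for protein-coding genes. The gap to protein-coding genes was thus smaller by height than by -log10 q. Median fold enrichment was 4.67, 4.58, 5.41 and 5.20, against 6.32, 5.90, 7.48 and 7.45. The local background that the deposited pileup and fold imply was 2.01, 1.78, 2.15 and 2.18 times the genome average at histone genes and 1.48, 1.37, 1.46 and 1.55 times at protein-coding genes. Lower fold enrichment therefore stood beside a higher local background in all 4 lists, and the part of the clustering of these genes in that background was not tested.

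**Figure D1:**
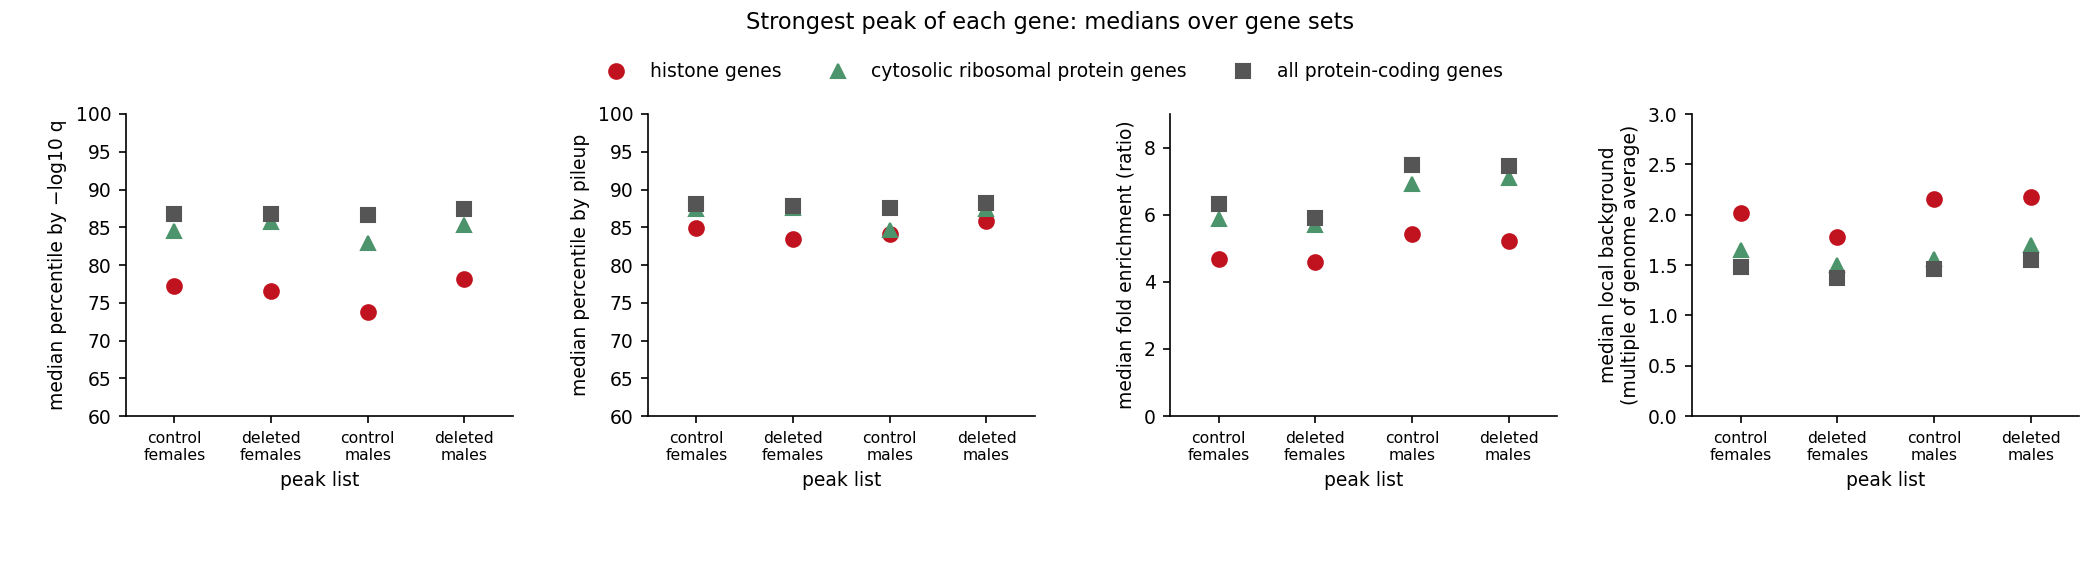
Medians over the strongest peak of each gene for histone genes (circles), cytosolic ribosomal protein genes (triangles) and all protein-coding genes (squares) in the 4 pooled lists, shown as percentile by -log10 q, percentile by pileup, fold enrichment and local background. Histone genes lie lowest in the panels for -log10 q and fold enrichment and highest in the panel for local background (1.78 to 2.18 times the genome average); no error bars are drawn because each group has 1 list.

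Among the linker histone genes with a peak, H1f4, on chromosome 13 from 23621777 to 23622558, had percentiles of 88.4, 82.0, 80.6 and 84.1. H1f2, the second strongest in control females, had 82.1, 86.2, 83.3 and 88.0. Both encode main somatic linker histones. Both deleted values of H1f2 lay above both of its control values, whereas H1f4 was highest in control females. At the other end, H1f5 had 51.7, 56.7, 60.6 and 68.6. H1f1, on chromosome 13 from 23763668 to 23764412, had 44.9, 55.7, 49.1 and 66.2, the same order of genotypes as for H1f2. H1f1 encodes a linker histone with a more restricted expression than the others. Outside the clusters, H1f0, whose product replaces other linker histones in cells that stop dividing, had 71.9, 71.4, 82.9 and 80.7. These values switch between 2 peaks. The locus with its summits inside H1f0 had 71.1, 70.5, 78.0 and 80.7. The locus just past the end of H1f0 at 79030504 had 71.9, 71.4, 82.9 and 72.5. In males the first shifted by 2.67 points with deletion and the second by -10.5. H1f10, the gene of the divergent variant H1.10, had 81.4, 89.3, 82.0 and 84.6, again with both deleted values above both control values. How many genes in all had this order was not counted, so it has no background here.

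The H2A genes formed the narrowest class together with H2B: all 19 lay between 62.8 and 86.7 in control females. The strongest were H2ac19, with 86.7, 86.2, 87.1 and 91.3, and H2ac18, with 85.6, 87.7, 91.6 and 93.8. They lie next to each other in the chromosome 3 cluster. In both female lists their peaks also ran over the adjoining H3c15 and H3c14. The male values of H2ac19 and the control male value of H2ac18 came from separate peaks at H3c15 and H3c14. The peak over H2ac19 itself stood at 80.1 in control and 85.7 in deleted males. That over H2ac18 stood at 84.1 in control males. The upstream windows of H2ac18 and H2ac19 were 95.8% identical over 260 bases, and those of the adjoining H3c14 and H3c15 99.6% identical over 285 bases. The sources used here do not say how reads that map to more than 1 place were treated, and the separate values of these copies are uncertain. The weakest H2A genes were H2ac13, with 68.6, 74.1, 69.0 and 79.0, and H2ac8, with 62.8, 66.2, 68.0 and 71.3.

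For H2B, H2bc12, on chromosome 13 from 22035821 to 22036320, was strongest in control females, with 84.3, 89.1, 84.2 and 88.2. In control males H2bc23, at 86.1, and H2bc4 ranked above it. Its peak also covered its H2A partner H2ac12, so both genes carry the same values. H2bc4 had 84.2, 88.3, 85.0 and 83.3 and shared its peak with H2ac6. H2bc13 and H2bc8, the weakest, have the values of their partners H2ac13 and H2ac8. The class medians of H2A and H2B were 78.9 and 77.8 in control females and 80.7 and 79.8 in deleted females.

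The H3 genes spread more widely. H3c6, on chromosome 13 from 23561475 to 23562385, had 92.9, 88.7, 80.9 and 89.8 and was the strongest histone gene in control females. H3c15, whose strongest peak was also the one assigned to H2ac19, had 86.7, 86.2, 87.1 and 91.3. H3c11 had 55.6, 51.9, 45.9 and 54.1. H3c10, on chromosome 13 from 21717628 to 21718115, had 43.2, 74.1, 49.5 and 14.3, the widest range of any histone gene.

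The H4 genes, all of which encode the core histone H4, were the weakest class in each list, with medians of 63.3, 69.2, 61.2 and 70.2. H4c3, on chromosome 13 from 23698084 to 23698458, stood apart at 88.0, 88.7, 85.1 and 85.4. It was followed by H4c14 on chromosome 3, with 75.2, 75.7, 74.1 and 77.0. Here the control female value came from a different peak than the values of the other lists. The 2 loci of H4c14 had 70.4, 75.7, 74.1 and 77.0, and 75.2, 67.1, 68.3 and 68.9. In females they shifted by 5.27 and -8.18 points with deletion. H4c17 had 32.7, 27.6, 47.2 and 41.1, and H4c2, on chromosome 13 from 23756937 to 23757386, had 28.5, 33.6, 38.6 and 38.6. The values of H4c17 belong to a small peak past its 3′ end. The locus over H4c17 itself, from 21811647 to 21812116, had 26.3, 27.5, 18.7 and 15.2, lower than H4c2 in each list. H4c3 and H4c2 also differed in local background, at 1.28, 1.11, 1.20 and 1.40 times the genome average for H4c3 and 2.35, 1.96, 2.38 and 2.65 times for H4c2. In pileup, H4c3 had 114, 94, 80 and 71 and H4c2 had 74, 59, 56 and 48. H4c3 was thus the higher of the pair in raw height as well as in rank.

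**Figure D2:**
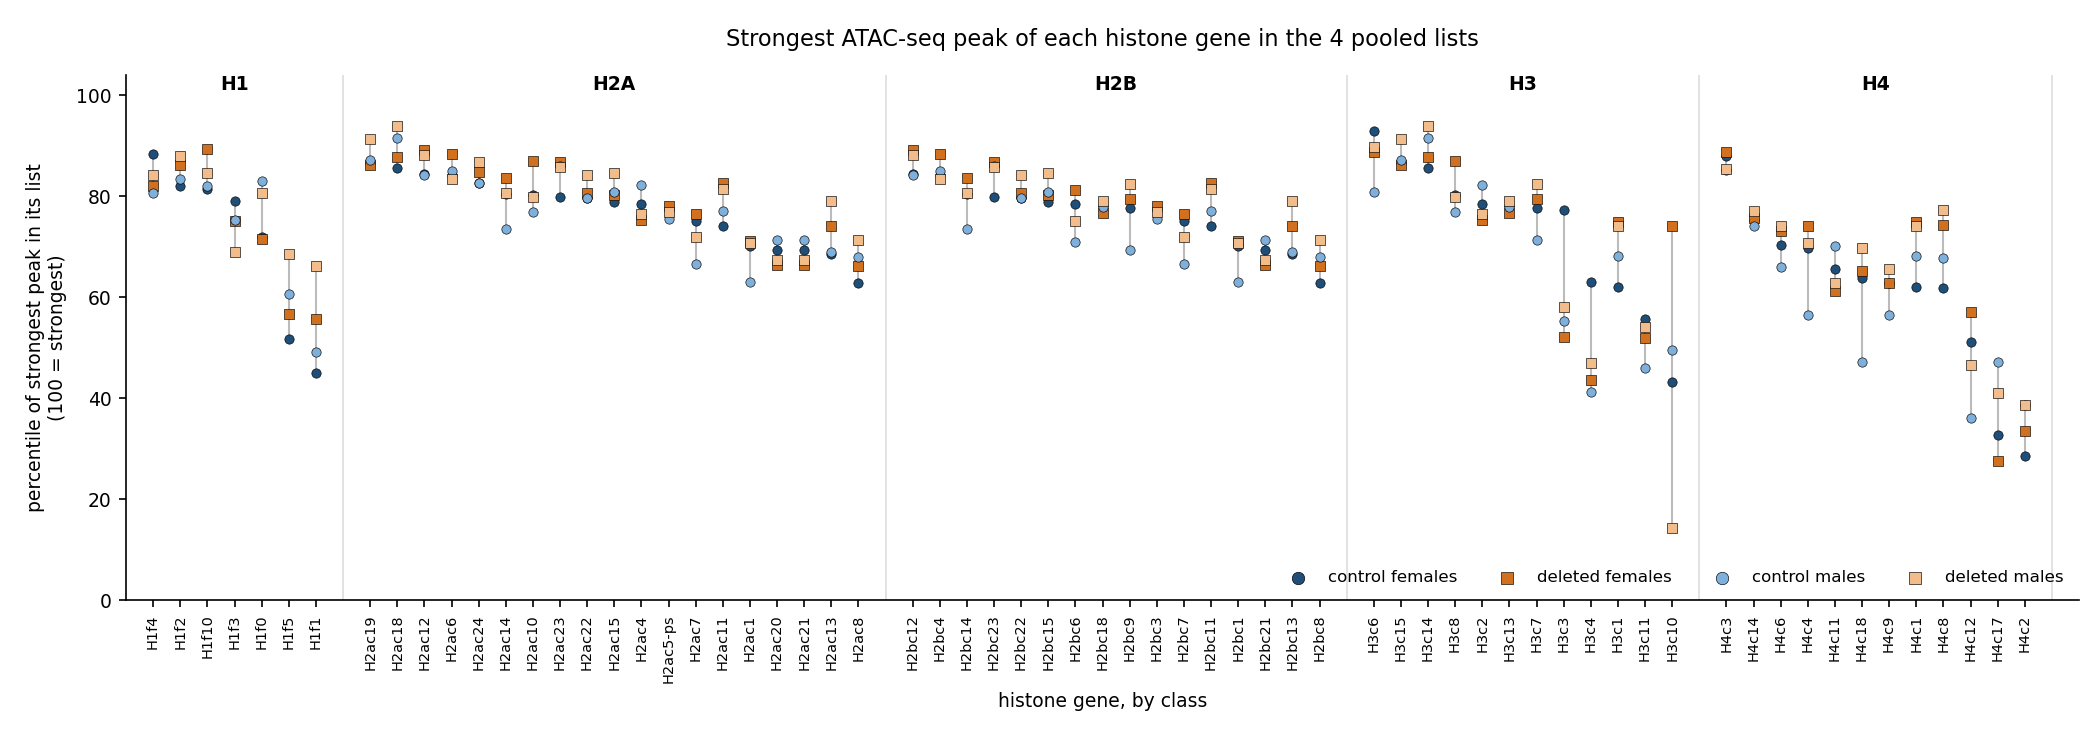
Percentile of the strongest peak of each of the 66 histone genes with a peak, by class and in descending order in control females; circles are control lists, squares deleted lists, and grey lines join the 4 values of a gene. H2A and H2B genes lie between 62.8 and 93.8 in all lists, whereas H3c10 runs from 14.3 to 74.1 and H4c2 stays at or below 38.6.

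The peaks of short core histone genes reached from the start to near the 3′ end, while those of H1 genes mostly did not. Of 64 histone genes of up to 2500 bp, 59, 58, 57 and 58 had at least 50% of their span under peaks, and 18, 14, 8 and 9 were covered in full. Among 55 histone genes of up to 1 kb with a known strand, the peak that held the gene start was followed to its edge on the side of the 3′ end. The start lay in a peak for 52, 52, 52 and 50 genes, and the median edge lay at -26, -45, -45.5 and -50.5 bp from the annotated 3′ end, negative values being short of it. The edge fell within 100 bp of the 3′ end in 41, 34, 39 and 37 genes (78.8%, 65.4%, 75% and 74%). Of other protein-coding genes of like span whose start lay in a peak, 9 of 54, 8 of 54, 4 of 46 and 4 of 49 met this limit, or 16.7%, 14.8%, 8.7% and 8.16%. The limit of 100 bp was chosen with the values known, and no test was made. These other genes were longer, with a median span of 852.5 bp against 487.5 bp in control females. With genes of up to 600 bp only, the count was 39 of 44, 32 of 44, 37 of 44 and 35 of 42 for histone genes and 1 of 9, 2 of 9, 1 of 8 and 1 of 7 for the others.

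By class, the median distance was -18, -20.5, -20 and -19.5 bp for H2B, with all 10 genes within the limit in every list. It was -21, -32.5, -44.5 and -36 bp for H2A, -34, -53, -46 and -53 bp for H4, and -80, -89.5, -102.5 and -101.5 bp for H3. The H1 genes differed from the core histone genes in this respect: their median was -227, -296, -319 and -362 bp and none of their 5 peaks ended within 100 bp of the 3′ end in any list. Not all fell short: the edge at H1f2 lay at 624, 555, 497 and -362 bp, and that at H1f3 at 530, -296, -286 and -281 bp. H3c6, the H3 gene with the strongest peak, also ended short, at -423, -437, -388 and -454 bp. Peaks ran on by more than 100 bp past the 3′ end at 6, 6, 1 and 1 genes. In control females these were H1f2 and H1f3, H4c11 (140 bp), H4c18 (282 bp), and H2ac18 and H2ac19, where the peak ran on for 1272 and 1314 bp over the neighbouring H3c14 and H3c15. Peaks covered a median of 94.2%, 90.4%, 90.6% and 88.3% of the span of the 53 histone genes that any peak touched, and 59.6%, 51.1%, 50.4% and 43.9% of the other genes touched by one.

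**Figure D3:**
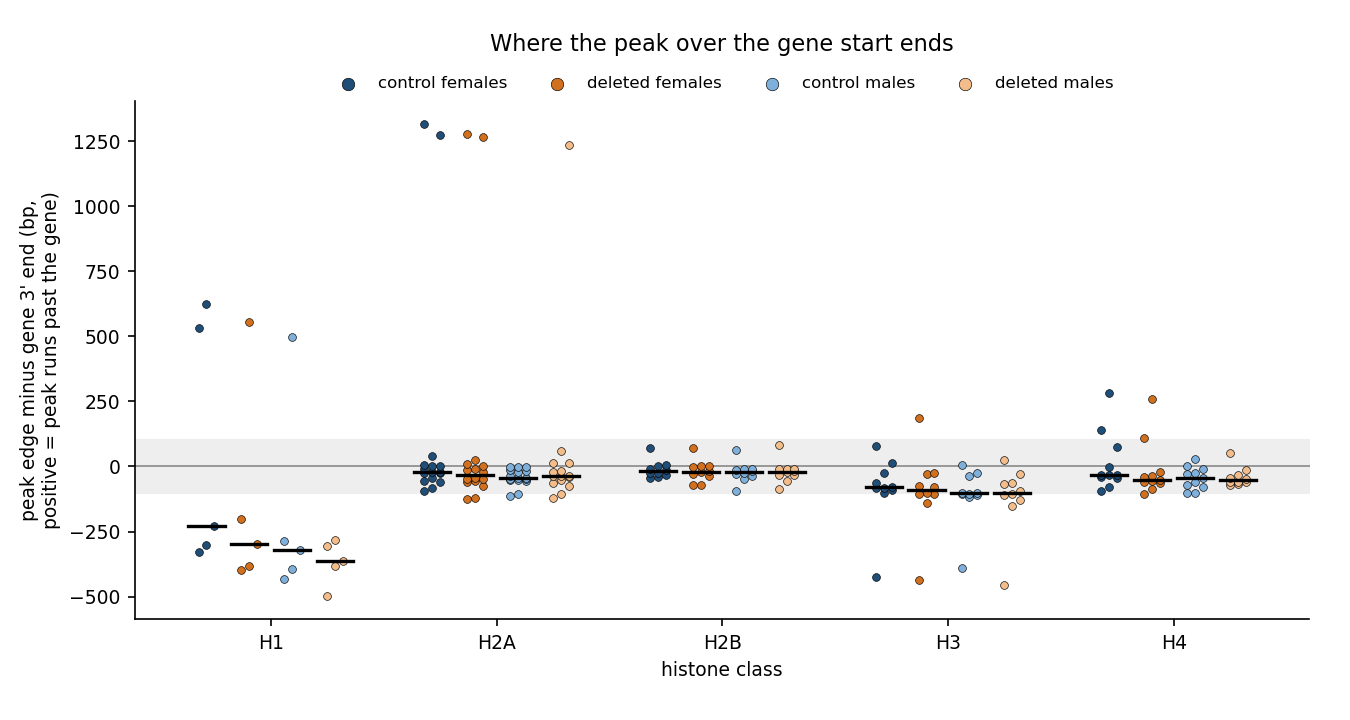
Distance from the annotated 3′ end of each histone gene of up to 1 kb to the edge of the peak that holds its start, in bp, by class and list; points are genes, black bars are medians and the grey band marks 100 bp on either side. H2A, H2B and H4 genes gather in the band, with H2B medians of -18 to -20.5 bp, and H1 medians lie between -227 and -362 bp.

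The median position of the summit lay near the gene start, as it did over other genes. It lay at -12, 16, -6 and 16 bp from the start of 59 histone genes, where negative values are upstream, and at 4, 4, 0 and 2 bp over protein-coding genes. The summit fell in the promoter window in 47.5%, 47.5%, 47.5% and 40.7% of histone genes, and in 49.6%, 49.3%, 49.9% and 49.5% of protein-coding genes. The share was thus lowest in deleted males, 24 of 59 genes.

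Head-to-head pairs showed the extent of these peaks most plainly. There were 9 pairs of an H2A and an H2B gene with known starts, 163 to 280 bases apart (median 179). In each list, all 9 pairs had 1 peak as the strongest of both genes. In 6 pairs both genes were short and the peak spanned both, with widths of 1067 to 1214, 1039 to 1226, 1063 to 1186 and 1082 to 1251 bp for pairs of 1149 to 1201 bp. The peak edges lay between 70 bp inside and 60 bp outside the ends of the pair (-70 to 60 bp) over all 4 lists. For H2ac11 and H2bc11, which span chromosome 13 from 22042478 to 22043658, the control female peak ran from 22042475 to 22043658. For H2ac12 and H2bc12, the strongest pair in control females, from 22035122 to 22036320, the peaks ran from 22035083 to 22036296, 22035098 to 22036323, 22035124 to 22036309 and 22035062 to 22036312. H2ac8 and H2bc8, the weakest pair in both female lists, had a peak of like width (1113, 1116, 1115 and 1083 bp). In both male lists H2bc1 and H2ac1 ranked lower than this pair. The intervals between the starts in both pairs are the sequences given above for H2bc12 and H2bc8.

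H2bc1 and H2ac1, which encode testis and oocyte forms of H2B and H2A, were the exception among the pairs. Their peak was 243, 245, 274 and 235 bp wide and lay at the 3′ end of H2bc1, not between the starts. Its edge lay at -932, -934, -914 and -933 bp from the far end of H2ac1, that is, short of it. The percentiles of 70.1, 71.2, 63.0 and 70.6 for these genes therefore belong to a narrow peak away from their shared promoter. Its local background was 1.00 times the genome average in all 4 lists, the lowest that the peak caller allows.

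**Figure D4:**
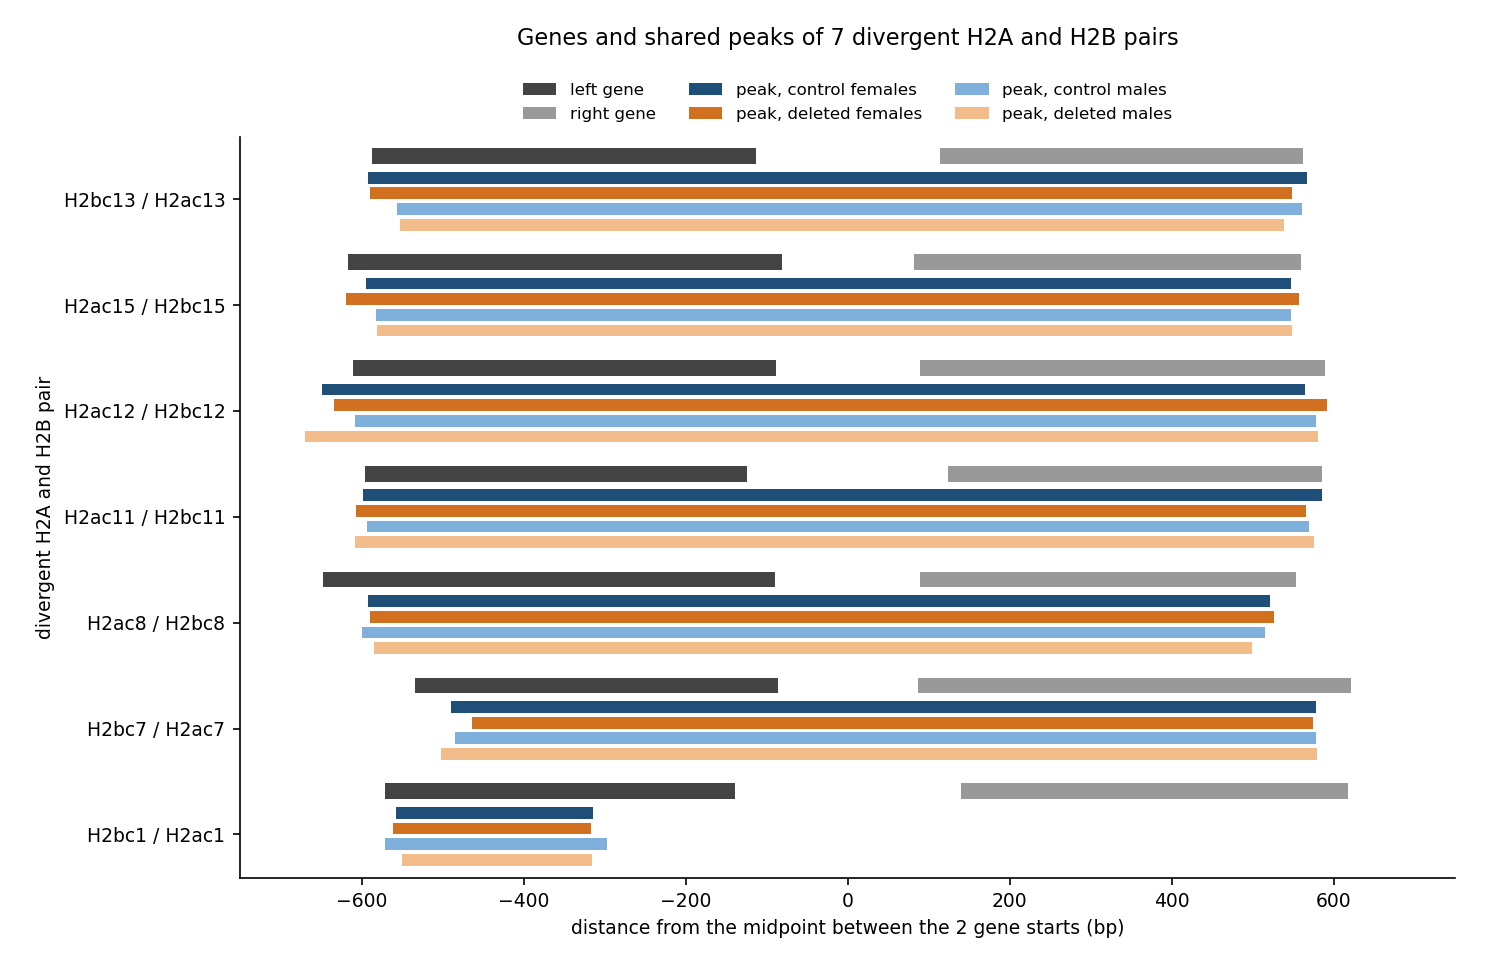
Genes (grey bars) and their shared peaks (coloured bars, 1 per list) at 7 divergent H2A and H2B pairs, as distance in bp from the midpoint between the gene starts. In 6 pairs the peaks of all 4 lists end within 70 bp of both gene ends; at H2bc1 and H2ac1 the peak is 235 to 274 bp wide and lies over the 3′ end of H2bc1.

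With deletion of Smchd1, no histone gene peak was lost or gained. Here a lost peak was one of the 44079 strongest control peaks that shared no base pair with any peak of the deleted list, and a gained peak was the converse. In females 0 of 49 candidate histone peaks were lost and 0 of 52 were gained, against 0.44% and 1.13% of all candidate peaks. In males 0 of 50 were lost and 0 of 53 gained, against 1.09% and 0.837%. With so few candidates a count of 0 is near these background shares. Between the lists of 1 genotype, male against female, no histone peak was called either, with background shares of 0.132% and 0.111% for controls and 0.948% and 0.49% for deleted lists.

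Where overlapping peaks of the 4 lists were merged, the histone genes had 62 loci, of which 60 were present in all 4 lists (96.8%, against 60.1% of loci at protein-coding genes). The background loci include peaks anywhere in a gene and were not matched to the histone loci in position or strength. The other 2 histone loci were weak. The locus between H2ac23 and H4c17, on chromosome 13 from 21811191 to 21811368, was in the control lists only, with percentiles of 16.6 in females and 15.6 in males. The locus between H4c18 and H2ac24, from 21832552 to 21832752, was in deleted females at 12.5 and in control males at 15.6; in the full control female list it was present below the length used here. These loci lie in copies: the upstream windows of H2ac23 and H2ac24 were 100% identical over 200 bases and those of H4c17 and H4c18 99.7% identical over 299 bases. The treatment of reads shared by copies is not known here, so the values at these 2 loci are uncertain.

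The rank of a gene's strongest peak moved by at least 10 percentile points in few histone genes. In females 5 of 66 moved up and 2 down, against 5.26% and 5.92% of protein-coding genes with a peak in both lists. In males 6 moved up and 1 down, against 6.74% and 4.23%. As shares of the 66 genes these counts were 7.58% and 3.03% in females and 9.09% and 1.52% in males, near the background. Between lists of 1 genotype, male against female, 3 rose and 6 fell for controls, with 3.83% and 5.05% of protein-coding genes, and 3 rose and 2 fell for deleted lists, with 6.46% and 4.44%.

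The smaller moves leaned upward with deletion. In females 48 of 66 histone genes had a higher percentile in the deleted list, against 50.4% of protein-coding genes, and in males 52 of 66, against 57.4%. Between control lists the number was 33 of 66, against 48.7%, and between deleted lists 39 of 66, against 55%. The median shift with deletion was 1.83 points in females and 4.01 in males, against 0.02 and 0.51 over protein-coding genes. Cytosolic ribosomal protein genes leaned the same way, with 57 of 94 higher in females (60.6%, median 0.94) and 63 of 94 in males (67.0%, median 1.57). The difference between the 2 gene groups was not tested. Ranked by pileup, the shift in females turned downward, with a median of -0.73 and 25 of 66 genes higher against 47.4% of protein-coding genes, whereas males kept an upward median of 2.45 with 48 of 66 higher against 57.6%. Ranked by fold enrichment, females had 56 of 63 higher (background 58.2%) with a median of 8.51, and males 54 of 66 (57.6%) with a median of 5.60. For ribosomal protein genes, 50% of the 94 were higher in females and 72.3% in males by pileup, and 73.4% and 68.1% by fold enrichment. The split of genes moving up or down by at least 10 points in females was 25 and 2 by fold enrichment (backgrounds 9% and 7.04%) and 0 and 2 by pileup (4.97% and 4.21%). In males it was 12 and 1 by fold enrichment (7.4% and 5.57%) and 2 and 1 by pileup (6.52% and 3.4%). The direction in females thus depends on the strength measure; the median local background at histone genes was 2.01 in control and 1.78 in deleted females, while in males it was 2.15 and 2.18. Its part in the shift was not tested.

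Counted once per merged locus, 41 of 60 loci were higher in deleted females (background 46.6%) and 44 of 60 in deleted males (51.9%), with 33 higher in both sexes (27.2%) and 8 lower in both (28.7%). The backgrounds are the loci at protein-coding genes, not matched in position or strength. The loci that neighbouring genes share are counted once here, and the lean upward by -log10 q remained. The shifts in females and males had a Spearman correlation of 0.26 across the 60 loci, given as a description; loci of 1 cluster share their surroundings and libraries.

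H1f1 was the only histone gene that moved up by at least 10 points in both sexes, by 10.8 in females and 17.2 in males. Over protein-coding genes this share was 1.68%, and 1 of 66 histone genes is near it. The count is thus no sign of an excess among histone genes. The pileup of H1f1 was 85, 73, 61 and 64 and its fold enrichment 3.01, 3.20, 3.43 and 4.05. By pileup rank its shift was 2.57 points in females and 10.7 in males. No histone gene moved down by that much in both sexes, against 1.08%. The upstream sequence of H1f1 is shown above.

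The other genes past 10 points were singled out after their values were seen. In females H4c8 moved up by 12.5 points, and H4c1 and H3c1, which share a peak, by 13.02. H3c4 had 62.9, 43.6, 41.2 and 47.0 and H3c3 had 77.2, 52.2, 55.3 and 58.0, and both were high in control females alone. For H3c3 the control female value is that of the peak of the neighbouring H2bc3, whose summit came within 1 kb in that list only, and at its own locus H3c3 had 61.6, 52.2, 55.3 and 58.0. In males H4c18 had 47.2 and 69.7, H4c4 56.4 and 70.7, H2bc9 69.4 and 82.4, H3c7 71.3 and 82.4, and H4c12 36.1 and 46.6 in control and deleted cells. The deleted male value of H2bc9 and H3c7 is that of a peak they share, so these genes are not separate cases. The control male value of H3c7 came from a different peak, so its shift switches between peaks. The locus of that different peak had 71.3 in control and 77.3 in deleted males. In each of these 5 genes the control male value was the lowest of the 4 lists, so the upward shift was measured from a low control value.

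H3c10 moved in opposite directions in the sexes, up by 30.9 points in females and down by 35.1 (-35.1) in males. Opposite moves of at least 10 points were seen in 1.44% of protein-coding genes, and 1 of 66 histone genes is near that share. As with H3c3, the deleted female value came from a neighbour, the peak of H2bc13 and H2ac13, whose summit fell within 1 kb of H3c10 in that list. At the locus over H3c10 itself, from 21717516 to 21718026, the percentiles were 43.2, 51.9, 49.5 and 14.3, a shift of 8.67 in females and -35.1 in males. Only the deleted male value stood apart there. The pileup of the strongest peak in males was 74 in control and 46 in deleted cells, and this is the shallowest list. A secondary locus in the span of H2bc6, from 23585018 to 23585395, was likewise low in deleted males alone, at 45.0, 38.9, 45.5 and 14.3. In the other direction, the locus of H2ac21 and H2ac20 on chromosome 3, from 96219670 to 96220271, had 52.9, 62.9, 38.3 and 64.8. Both deleted values lay above both control values, an order whose share over all loci was not counted.

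**Figure D5:**
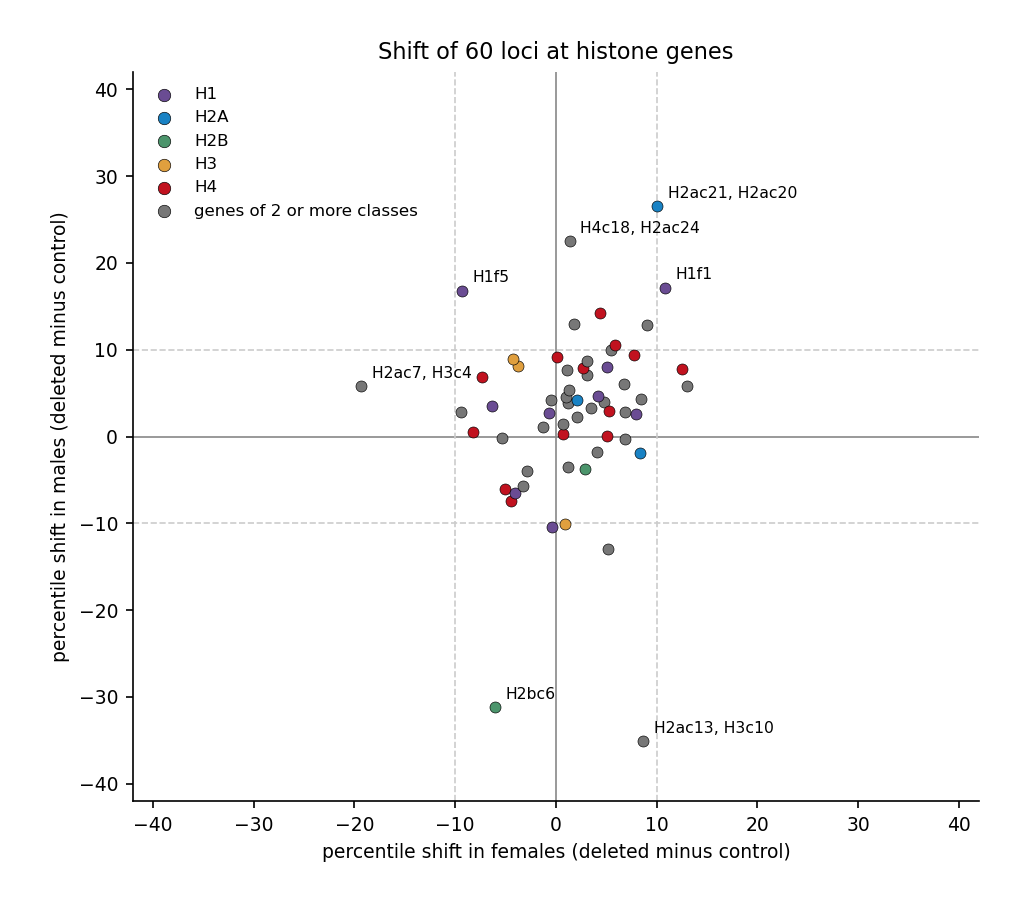
Shift in percentile with Smchd1 deletion in females (horizontal axis) and males (vertical axis) for the 60 histone gene loci present in all 4 lists, coloured by class; dashed lines mark 10 points. 33 loci lie in the upper right quadrant, with H1f1 and the locus of H2ac21 and H2ac20 beyond 10 points on both axes, and the locus over H3c10 lies at 8.67 and -35.1.

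Genes listed as acting on histone genes or carrying histones showed a peak without exception in the lists chosen. All 20 genes listed for histone gene transcription and mRNA processing had a peak in all 4 peak lists. So did all 9 genes of replacement histone variants and all 21 histone chaperone genes, against the 72.4% of protein-coding genes given above. Npat, which encodes the coactivator of histone transcription, had percentiles of 98.9, 99.6, 98.9 and 99.4. Hinfp, whose product binds the H4 promoter, had 98.8, 99.1, 98.2 and 99.5, and Casp8ap2, which encodes FLASH of the histone locus body, had 98.6, 98.0, 97.7 and 98.8. The median over the transcription and processing genes was 90.9, 92.0, 91.4 and 92.6, that over the variants 91.1, 87.7, 92.4 and 90.3, and that over the chaperones 91.9, 93.3, 91.8 and 93.4. Among the variants, H2az2 had 98.2, 97.8, 98.0 and 98.1 and H2az1 had 95.1, 97.0, 94.6 and 96.0. Without matching for gene length, these medians lay above those of histone genes in each list, and also above the protein-coding medians given above. Single genes did not all do so: Znhit3 stood at 73.6 in control females and 73.0 in deleted males, and Coil at 73.5 and Macroh2a2 at 74.4 in deleted females, below the histone gene medians of those lists. Whether Znhit3 has a part in histone gene transcription or mRNA processing was not checked here. Of these 50 genes, Npm3, a nucleoplasmin family chaperone, was the only one to move by at least 10 points with deletion, falling from 54.5 to 39.6 in females and standing at 59.5 and 60.1 in males. Over protein-coding genes the shares were the 5.26% up and 5.92% down in females and 6.74% and 4.23% in males given above.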

How the data were processed

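ATAC-seq peak lists of 4 groups were used. Per the submitters' processing notes, the build was mm10 and the tools included MACS2, Picard, SAMtools, Bowtie2 2.2.5 and Trim Galore 0.4.0; their roles are not stated. Peaks were called with MACS 2.1.0.20140616, per the file headers, from 1 pooled alignment for each group and no control sample, with tags moved 75 bp upstream and extended to 150 bp at a q-value limit of 0.05. How reads with several matches were treated is not stated. The signal unit is the pileup, the coverage height deposited with each peak. Fold enrichment is the authors' ratio of pileup to local background, and -log10 q values were used as deposited.

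Autosomal, X and Y peaks were ranked by -log10 q and each list was reduced to 88159 peaks. Percentiles give the share of a list that is as weak or weaker. Local background was computed from the deposited pileup and fold, from the tag number and the 150 bp extension; its minimum was 1 in every list. Merged loci join overlapping peaks of the 4 lists. Genes came from a RefSeq table without exons, so no exon, intron or UTR is given. Gene strand came from the RefSeq promoter table. Named genes were the 2 strongest and 2 weakest of each class in control females, genes without a peak or with one in some lists, genes outside the clusters, and genes moved in both sexes; others are marked. Members, gene lists and rules were chosen with earlier results of these data known. Marker lists also held oligodendrocyte genes (2 of 5 with a peak in all lists), microglia and blood genes (3 of 5), endothelial genes (4 of 4) and fibroblast genes (5 of 5).

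Counts and medians are set beside those of all protein-coding genes, and p-values were not computed. Depth differed between groups, and weak peaks are least reliable in the deleted male list. Alternatives covered the list length, ranking value, flank, overlap, margin and shift. The tools were matplotlib 3.10.9, scipy 1.17.1, numpy 2.4.6 and pandas 2.3.3 under Python 3.11.15.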

Additional observations from a re-analysis of the deposited data

Results flagged for a closer look

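H3c10, a replication-dependent H3 gene of the chromosome 13 cluster, moved in opposite directions with Smchd1 deletion in the sexes: its percentile was 30.9 points higher in deleted than in control females and changed by -35.1 points in males. The difference between the sexes was not tested, since each group has 1 pooled list. Such opposite moves were seen in 1.44% of protein-coding genes, and 1 of 66 histone genes is near that share. At the locus over the gene itself the shifts were 8.67 and -35.1.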

How the results depend on the processing

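Of 124 values under alternatives, 83 were labelled the same, 40 moved and 1 reversed. The log2 ratios of peak counts were labelled the same even where their sign changed. In females the ratio went from 0.05 to -0.13 with a -log10 q of at least 10. In males it went from -0.09 to 0.08 among the 44079 strongest peaks. The cause was not tested unless the setting itself names it. With the summit required inside the gene, the lists held 34, 35, 35 and 35 histone peaks at 33, 34, 34 and 34 genes. The share of protein-coding genes under that rule is not given. The median percentile of the strongest peak was 61.4, 68.2, 63.5 and 64.2 by fold enrichment and 84.9, 83.5, 84.1 and 85.8 by pileup. By fold enrichment 25 genes moved up in females, with a median of 8.51, and 12 in males. By pileup 0 moved up in females, with the reversed median of -0.73, and 2 in males, with a median of 2.45. With a limit of 5 points, 17 genes moved up and 4 down in females (backgrounds 12.4% and 14.4%), and 23 up and 6 down in males (17.1% and 10.9%). With summits up to 5 kb from the gene, 3 moved up and 0 down in each sex, and no background is given for that setting. Counted per merged locus, an alternative chosen after seeing the data, 4 moved up and 1 down in females (backgrounds 11.9% and 16.5%), and 8 up and 5 down in males (14.8% and 14.1%).

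Lost and gained peaks were 0 in the main setting. For the other settings, shares over all peaks are not given, so these counts have no background beside them. With all peaks of the equal-length lists as candidates, females had 1 lost and 1 gained peak and males 2 lost peaks, all at the weak loci by H2ac23 and H4c17 or H4c18 and H2ac24. With the lists as deposited, females had 3 lost and 1 gained and males 2 lost. The further female peaks lay at H1f6 and H4c14 (lost) and H1f7 (gained). The deposited lists held 130487, 104716, 101635 and 88438 peaks, and in each sex the longer control list offers more peaks to be called lost. With an overlap of 50% of the peak required, 1 was lost in females, at H1f3, where a 1433 bp control peak gave way to a 602 bp one, and 1 gained in males, at H2ac21, H2ac20 and H2bc21.

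No paired analysis was possible because the authors pooled the libraries of each group before calling peaks. Pooling likewise prevented leaving out a library.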

Other observations

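Of 6 genes of the same table that carry a histone gene name among their older symbols but not as their current one (H4f16, H2bu2, H2bu1-ps, H2aw, H4bc24 and H2af-ps2), all had a peak in all 4 lists. H4f16, an H4 gene outside the clusters, had percentiles of 71.1, 80.3, 80.6 and 74.2. H2aw and H2bu1-ps, an adjacent H2A gene and H2B pseudogene on chromosome 11, shared a peak at 84.6, 85.7, 83.9 and 85.2. H2bu2, an H2B gene on chromosome 11, was the weakest in control females, at 39.9, 53.9, 49.2 and 38.8, higher with deletion in females and lower in males.

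Between the histone genes of the chromosome 13 clusters lie 10 further protein-coding genes. They include H4bc24, which is itself a histone gene by its older symbol, as given above. Of the 10, 6 had a peak in all lists, H4bc24 among them. The other 4 had none in any: Trim38, Slc17a2, Slc17a3 and Slc17a4, the last 3 of a family of solute transporters. Zfp184, a zinc finger gene, had 84.1, 86.7, 82.6 and 93.1. Hfe, the haemochromatosis gene, had 73.3, 70.2, 71.8 and 64.2. Stretches without a called peak near a gene were thus present inside the clusters.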
